A study of Homo sapiens with 6 samples.

Results

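The data describe 39 genes of the ATF4 stress response and the unfolded protein response in 22Rv1 cells, an established human prostate cancer cell line that resists enzalutamide. The genes were chosen by name, as known members of the integrated stress response, of amino acid supply or of the unfolded protein response. Earlier results of these data were known when the choice was made. Counts of members set beside shares of all genes therefore describe this list and are no independent test of it. All 39 were found among the 17901 genes of the deposited log2 CPM table (62703 genes in the count table). Cells of both groups were kept in RPMI-1640 with serum and were transfected once with 25 pmol of a small interfering RNA pool, either a non-targeting pool (siCtrl, n = 3) or a pool against MED12 (siMED12, n = 3), a subunit of the Mediator kinase module. Transfection medium was replaced at 6 h, and poly(A) RNA was sequenced from cells harvested 3 days after transfection. Each group rests on 1 pool in 1 cell line, so effects of the siMED12 pool on other transcripts cannot be told apart from loss of MED12.

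ATF4 is the central transcription factor of the integrated stress response. Kinases that sense amino acid shortage (EIF2AK4, also called GCN2) or misfolded protein in the endoplasmic reticulum (EIF2AK3, also called PERK) phosphorylate the initiation factor eIF2, which lowers general translation while the ATF4 mRNA is translated more. ATF4 with partners of the C/EBP family then induces genes for amino acid synthesis and import and for cell death or recovery. The unfolded protein response has 2 further sensors, ERN1 (IRE1), which splices XBP1 mRNA, and ATF6, and raises the chaperones of the endoplasmic reticulum. Counts per gene measure mRNA level only, so neither the translation of ATF4 nor the splicing of XBP1 can be read from them.

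The libraries held 16136699 to 17012788 counts assigned to genes, with 25802 to 27404 genes detected in each, so depth differed little. MED12 was 67.8, 77.7 and 72.6 CPM in the siCtrl libraries against 23.9, 14.97 and 30.1 CPM after siMED12, with a log2 fold change of -1.66 (adjusted p 0.0314 by edgeR without a block and 1.52e-16 with it), and the siMED12 libraries were all below the siCtrl libraries. Of the prostate epithelial markers, HOXB13, KRT8, KRT18 and EPCAM all passed the expression filter. The 4 leukocyte markers summed to at most 0.298 CPM in any library, the 4 endothelial markers to at most 0.121 CPM, and the 4 fibroblast markers to 17.6 to 28.7 CPM in siCtrl and 17.8 to 28.1 CPM in siMED12, mostly COL1A1. Fewer cells expressing a gene and less of its RNA per cell cannot be told apart in these bulk libraries. Mitochondrially encoded genes took 4.43% to 10.0% of counts in siCtrl and 4.79% to 10.1% in siMED12, with similar shares in libraries of the same replicate number, and their part in the results below was not tested.

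Several members carry, close to an annotated start site, the letters through which these pathways are known to act. Promoter windows of 300 bases (RefSeq, GRCh38.p14, 250 bases before to 50 bases after a start) were found for 35 of the 39 members. PSPH, PYCR1, SHMT2 and SLC7A11 had no entry. A gene could have several windows (52 for the 35 members), and a match in any of them was counted. TGATGNAA, the core of the C/EBP-ATF response element bound by ATF4, was searched on both strands and was present in 9 of the 35 members (25.7%) and in 4.46% of 27305 genes. The ER stress element, CCAAT and CCACG separated by 9 bases, was present in 3 members (8.57%) and in 0.0916% of genes. The UPR element core TGACGTG was present in 2 members (5.71%, HYOU1 and ALDH18A1) and in 2.40% of genes. No member held more than 1 of the 3 motifs. The stretches printed are examples of each motif, taken from members of the different roles described below, with the motif in capitals, read 5′ to 3′ along the gene's strand. A motif in the other orientation appears as its reverse complement.

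The C/EBP-ATF letters stood at these places in CEBPG (chr19:33374051-33374098, plus strand), SLC1A5 (chr19:46784893-46784922, minus strand), SLC7A1 (chr13:29595663-29595692, minus strand), SLC3A2 (chr11:62881725-62881748, plus strand), CHAC1 (chr15:40953251-40953280, plus strand), ASNS (chr7:97872458-97872487, minus strand) and HERPUD1 (chr16:56931946-56931993, plus strand).
CEBPG: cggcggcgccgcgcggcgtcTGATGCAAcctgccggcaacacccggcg
SLC1A5: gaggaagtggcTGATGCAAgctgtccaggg
SLC7A1: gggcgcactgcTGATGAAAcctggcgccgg
SLC3A2: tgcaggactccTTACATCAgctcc
CHAC1: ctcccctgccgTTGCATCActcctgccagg
ASNS: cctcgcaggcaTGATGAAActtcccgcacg
HERPUD1: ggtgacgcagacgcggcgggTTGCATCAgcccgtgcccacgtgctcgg

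The ER stress element stood in HSPA5 (chr9:125241386-125241414, minus strand), XBP1 (chr22:28800598-28800626, minus strand) and CALR (chr19:12938364-12938422, plus strand), and the UPR element core in HYOU1 (chr11:119057367-119057413, minus strand).
HSPA5: cttcaCCAATCGGCGGCCTCCACGacggg
XBP1: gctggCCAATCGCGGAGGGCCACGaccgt
CALR: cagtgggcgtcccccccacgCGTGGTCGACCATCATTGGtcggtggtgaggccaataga
HYOU1: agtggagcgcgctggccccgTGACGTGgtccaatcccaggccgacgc

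The promoters of ATF3 and CREB3L2 held TGATGNAA as well. A match describes letters in a window and does not show that a factor binds there. Of the 14 members with any of the 3 motifs, 12 were lower in siMED12 in the fit with the block that is described below. So were 14 of the 21 without a motif and 16.2% of all genes tested. A relation between motif and change was not tested.

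After MED12 knockdown 34 of the 39 genes had a log2 fold change below 0, as did 47.6% of all genes tested, and the amino acid transporters had the lowest median of the 6 roles. Levels are given as CPM, read counts brought to a common library size with TMM scaling, and differences as log2 fold changes of siMED12 against siCtrl. By edgeR's quasi-likelihood test without a block, 5 members were lower at an adjusted p below 0.05 (STC2, GDF15, PYCR1, SLC1A5 and PDIA4) and 0 were higher. Over all genes tested, 0.413% were lower and 0.151% higher. At an unadjusted p below 0.05, 25 members were lower and 1 was higher, where 7.93% and 7.65% of all genes were. The DESeq2 Wald test called 16 members lower and 0 higher, and limma-trend 5 and 0. Over all genes the Wald test called 493 lower and 331 higher, against 74 and 27 in the main fit, and limma-trend 78 and 27.

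Libraries with the same replicate number resembled each other across the 2 groups, and a second fit therefore used the replicate number as a block. With the block, 30 members were lower and 1 was higher (VLDLR), and 8 were not called, where 16.2% of all genes were lower and 17.1% higher. Genes with a mean of at least 10 CPM, which are measured more precisely, were lower in 23.2% and higher in 22.9% with the block. The median log2 fold change of the 39 members was -0.38, against 0.02 over all genes. In 25 members every siMED12 library lay below every siCtrl library, as it did in 10.9% of all genes and 13.5% of genes with a mean of at least 10 CPM. In 1 member (VLDLR) every siMED12 library lay above, as in 11.2% of all genes. All 3 pairs of libraries with the same number moved down in 33 members and up in 2, where 27% of all genes moved down and 30.6% up in all 3.

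**Figure D1:**
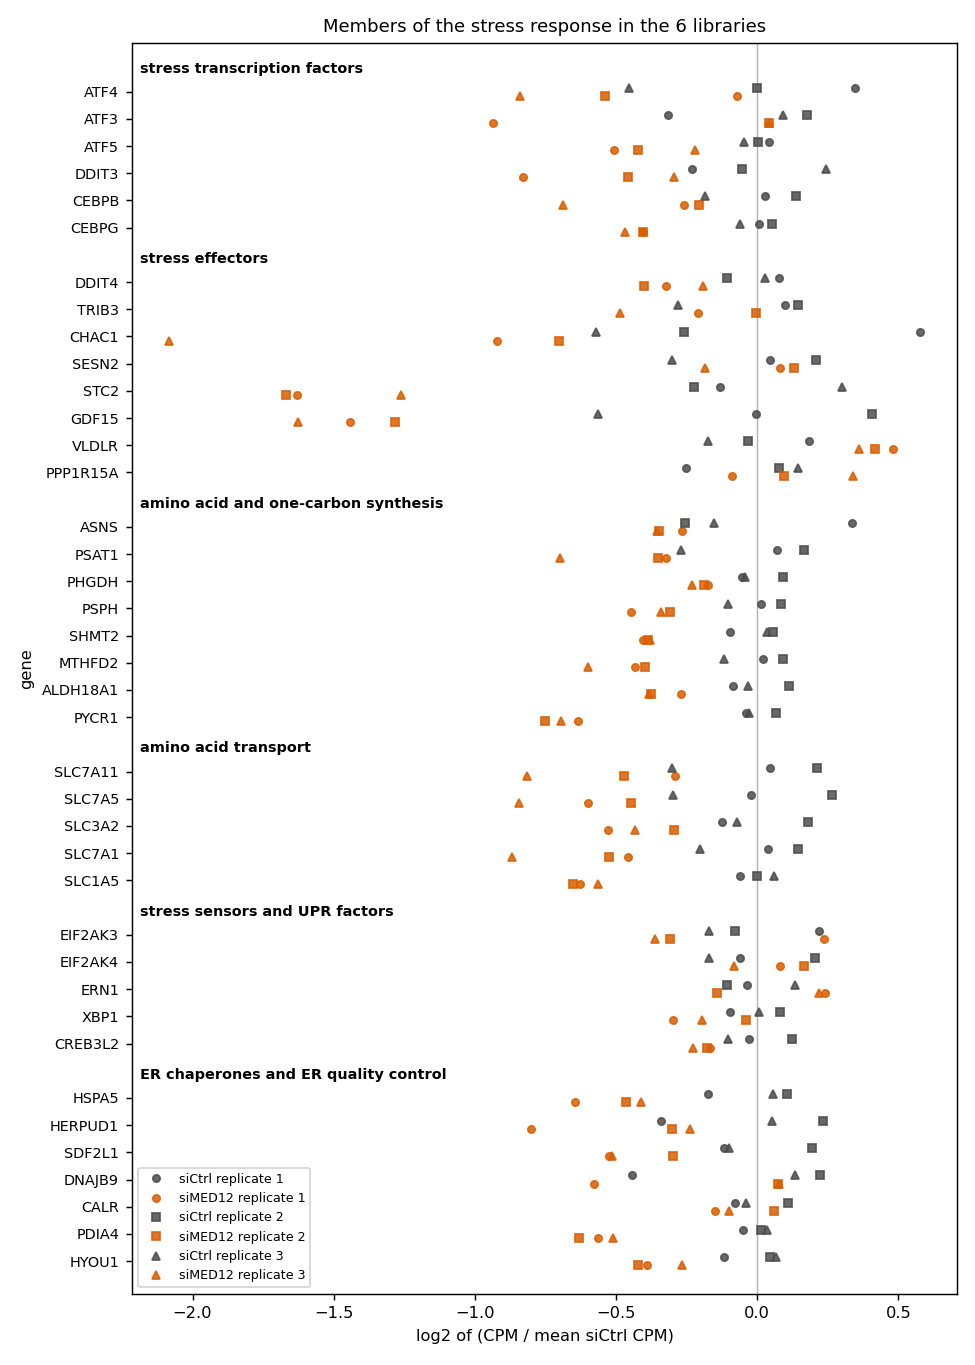
Level of each of the 39 members in the 6 libraries, as log2 of CPM divided by the gene's mean siCtrl CPM (x axis), with genes in rows grouped by role, siCtrl in grey, siMED12 in orange, and replicates 1, 2 and 3 as circles, squares and triangles. The orange points lie left of all grey points in 25 genes and right of them in VLDLR.

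The roles in the pathway are described in turn, beginning with the sensors. None of the 3 kinases was called in either fit. EIF2AK3, the kinase that senses misfolded protein, was 26.7, 21.7 and 20.4 CPM in the siCtrl libraries against 27.0, 18.5 and 17.8 CPM after siMED12. Its groups overlapped, and the log2 fold change was -0.12, SE 0.20, edgeR adjusted p 0.841 unblocked, and -0.13, adjusted p 0.307 blocked. EIF2AK4, the sensor of uncharged tRNA, was 100.3, 121 and 93.1 CPM in the siCtrl libraries against 111, 118 and 99.0 CPM after siMED12. These groups also overlapped (0.06, SE 0.12, edgeR adjusted p 0.878 unblocked, and 0.06, adjusted p 0.368 blocked). ERN1, the kinase and nuclease that splices XBP1, was 20.6, 19.6 and 23.2 CPM in the siCtrl libraries against 24.9, 19.1 and 24.6 CPM after siMED12, again with overlapping groups (0.12, SE 0.15, edgeR adjusted p 0.792 unblocked, and 0.11, adjusted p 0.378 blocked). For these 3 kinases the unblocked SE was larger than the difference itself.

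The UPR transcription factors XBP1 and CREB3L2 were lower with the block, by a small amount. XBP1, the substrate of ERN1 and a driver of chaperone and secretory genes, was 156, 176 and 167 CPM in the siCtrl libraries against 135, 162 and 145 CPM after siMED12. Every pair moved down (-13.2%, -8.10% and -13.1%), while the groups overlapped (-0.17, SE 0.10, edgeR adjusted p 0.458 unblocked, and -0.18, adjusted p 0.00198 blocked). Its unblocked value was -0.27 without siMED12 replicate 2. CREB3L2, a membrane-bound factor that promotes secretory pathway genes, was 121, 135 and 115 CPM in the siCtrl libraries against 110.1, 109 and 106 CPM after siMED12. Here the siMED12 libraries lay below the siCtrl libraries (-0.19, SE 0.09, edgeR adjusted p 0.367 unblocked, and -0.19, adjusted p 0.00272 blocked), and the unblocked value was -0.12 without siCtrl replicate 2. Of the 5 sensors and UPR factors, 0 were called without the block and 2 were lower with it, where 16.2% of all genes were. The median log2 fold change of the 5 was -0.12. That median was -0.010 without siMED12 replicate 3, -0.02 without siCtrl replicate 1 and -0.05 without siMED12 replicate 2. None had an unadjusted p below 0.05 by edgeR, and the DESeq2 Wald test called none.

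All 6 transcription factors of the stress response were lower with the block, and none was called without it (4 had an unadjusted p below 0.05, all lower). Of all genes tested, 16.2% were lower with the block and 7.93% at an unadjusted p below 0.05. The median log2 fold change of the 6 factors was -0.40, and the 3 pairs gave medians of -0.48, -0.41 and -0.39. ATF4 (ENSG00000128272.18, chromosome 22, 39519695 to 39522683, plus strand, GRCh38) was 393, 309 and 225 CPM in the siCtrl libraries against 294, 213 and 173 CPM after siMED12. Its level differed more between replicate numbers than between treatments, and the groups overlapped, yet each pair moved down (-25.2%, -31.2% and -23.4%). The fold change was -0.45, SE 0.24, edgeR adjusted p 0.412 unblocked, and -0.45, adjusted p 3.33e-11 blocked. The unblocked value was -0.26 without siCtrl replicate 1, -0.29 without siMED12 replicate 3 and -0.70 without siMED12 replicate 1. Of the 50-base stretches of its transcripts, 15.1% also occur in transcripts of other genes, 9.66% in ATF4P3, so part of its reads may have been lost or shared.

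CEBPG, a C/EBP factor that pairs with ATF4 on its response element, was 118, 122 and 113 CPM in the siCtrl libraries against 89.0, 89.1 and 85.2 CPM after siMED12. All siMED12 libraries were below all siCtrl libraries, with -0.42, SE 0.08, edgeR adjusted p 0.068 unblocked, and -0.42, adjusted p 8.57e-09 blocked, and the DESeq2 Wald test called it without the block (adjusted p 0.0026). DDIT3, which encodes the pro-apoptotic factor CHOP, was 34.7, 39.3 and 48.3 CPM in the siCtrl libraries against 22.9, 29.7 and 33.2 CPM after siMED12. Its groups did not overlap (-0.51, SE 0.18, edgeR adjusted p 0.214 unblocked, and -0.51, adjusted p 8.87e-07 blocked). ATF5, a factor translated under stress like ATF4, was 77.6, 75.4 and 72.8 CPM in the siCtrl libraries against 53.0, 56.1 and 64.6 CPM after siMED12, and the groups were separate (-0.38, SE 0.10, edgeR adjusted p 0.143 unblocked, and -0.38, adjusted p 5.79e-06 blocked). DDIT3 and ATF5 share 413 and 565 exonic bases with genes on the opposite strand, and whether strand was used in counting was not stated. CEBPB, a C/EBP factor of stress and inflammation, was 49.1, 52.9 and 42.4 CPM in the siCtrl libraries against 40.2, 41.7 and 29.9 CPM after siMED12. Its siMED12 libraries were all lower (-0.37, SE 0.15, edgeR adjusted p 0.303 unblocked, and -0.37, adjusted p 4.48e-05 blocked), with an unblocked value of -0.23 without siMED12 replicate 3. ATF3, a stress-induced factor that is also an immediate-early gene, was 30.9, 43.4 and 41.0 CPM in the siCtrl libraries against 20.1, 39.5 and 39.5 CPM after siMED12. Its decrease came mostly from the first pair (-35.0%, -8.91% and -3.58%), the groups overlapped, and the fold change was -0.22, SE 0.26, edgeR adjusted p 0.762 unblocked, and -0.25, adjusted p 0.0188 blocked. Without siMED12 replicate 1 the unblocked value of ATF3 was 0.02, without siCtrl replicate 2 it was -0.12, and without siCtrl replicate 1, siMED12 replicate 2 or siMED12 replicate 3 it lay between -0.39 and -0.36.

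**Figure D2:**
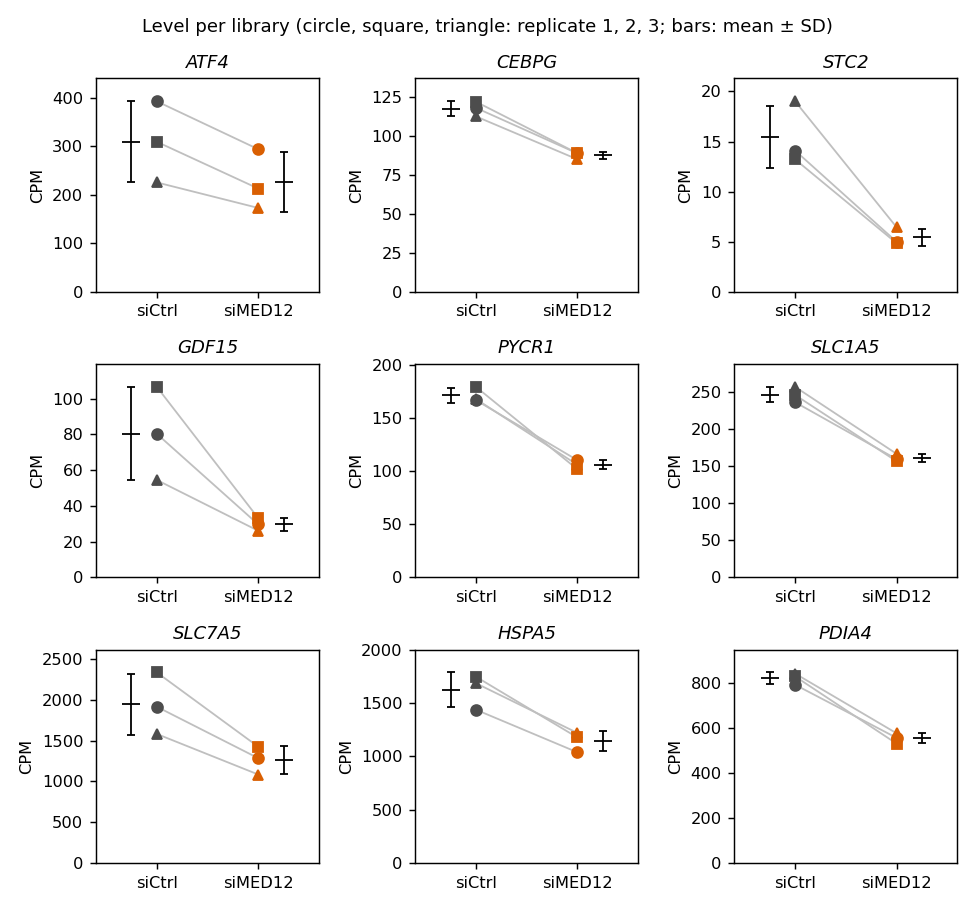
CPM of 9 members in each library (y axes start at 0), siCtrl on the left and siMED12 on the right of each panel, with grey lines joining libraries of the same replicate number and bars for the mean ± SD (n = 3). Every line slopes down. The groups overlap for ATF4 and are separate for the other 8 genes.

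Among the effectors downstream of these factors, responses differed in size and direction. The median log2 fold change of the 8 genes was -0.26, with values from -1.51 to 0.42, and 2 were lower without the block against 5 lower and 1 higher with it. Of all genes tested, 0.413% were lower without the block, and 16.2% were lower and 17.1% higher with it. STC2 and GDF15 had the largest decreases of all members. STC2 (stanniocalcin 2, a secreted glycoprotein induced by endoplasmic reticulum stress; chromosome 5, 173314723 to 173328447, minus strand) was 14.1, 13.2 and 19.0 CPM in the siCtrl libraries against 4.99, 4.85 and 6.45 CPM after siMED12. Its mean went from 15.4 CPM ± 3.12 in siCtrl to 5.43 CPM ± 0.884 in siMED12, SD, n = 3 each, with pair changes of -64.6%, -63.3% and -66.1%. The fold change was -1.51, SE 0.22, edgeR adjusted p 0.0385 unblocked, and -1.50, adjusted p 1.12e-11 blocked. GDF15 (a secreted stress hormone of the TGF-beta family, also a p53 target; chromosome 19, 18374731 to 18389176, plus strand) was 80.3, 107 and 54.5 CPM in the siCtrl libraries against 29.6, 33.1 and 26.0 CPM after siMED12. The siCtrl libraries spread widely and the siMED12 libraries little (80.5 CPM ± 26.0 in siCtrl to 29.6 CPM ± 3.53 in siMED12, SD, n = 3 each), without overlap. The fold change was -1.44, SE 0.23, edgeR adjusted p 0.0442 unblocked, and -1.42, adjusted p 6.05e-18 blocked, and with library size as the only scaling the unblocked adjusted p was 0.0521. In fits that each left out 1 library, the unblocked adjusted p ranged from 0.0479 to 0.204 for STC2 and from 0.0322 to 0.204 for GDF15, and each was called in 1 of the 6 fits. The ranges were 0.0449 to 0.186 for PYCR1 (called in 1 fit), 0.0511 to 0.201 for SLC1A5 and 0.0661 to 0.204 for PDIA4 (called in 0).

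CHAC1, an enzyme that degrades glutathione and a sensitive ATF4 target, was low, at 5.53, 3.10 and 2.50 CPM in the siCtrl libraries against 1.96, 2.28 and 0.876 CPM after siMED12. These levels rest on 93, 49 and 41 counts in siCtrl and 33, 39 and 14 in siMED12. The groups did not overlap, but the error was wide (-1.11, SE 0.43, edgeR adjusted p 0.266 unblocked, and -1.11, adjusted p 0.000993 blocked), and without siCtrl replicate 1 the unblocked value was -0.73. DDIT4 (REDD1), an inhibitor of mTORC1 signalling, was 25.2, 22.2 and 24.4 CPM in the siCtrl libraries against 19.1, 18.1 and 21.0 CPM after siMED12. Its groups were separate by a narrow gap (-0.30, SE 0.13, edgeR adjusted p 0.315 unblocked, and -0.30, adjusted p 0.00855 blocked). TRIB3, a pseudokinase that feeds back on ATF4, was lower in each pair (-19.3%, -9.92% and -13.2%) with overlapping groups (-0.22, SE 0.15, edgeR adjusted p 0.562 unblocked, and -0.22, adjusted p 0.000634 blocked). Its unblocked value was -0.10 without siMED12 replicate 3, -0.14 without siCtrl replicate 2, -0.34 without siCtrl replicate 3 and -0.36 without siMED12 replicate 2. VLDLR, a lipoprotein receptor, went the other way, at 8.75, 7.53 and 6.83 CPM in the siCtrl libraries against 10.8, 10.3 and 9.89 CPM after siMED12. All its siMED12 libraries were above the siCtrl libraries (0.42, SE 0.18, edgeR adjusted p 0.301 unblocked, and 0.42, adjusted p 0.0153 blocked). In blocked fits that left out replicate 2 or 3 of either group VLDLR was no longer called. Leaving out 1 library leaves its partner alone in the block, so each such fit rests on the other pairs only. Its exons share 1360 bases with genes on the opposite strand. Further members have such overlaps, among them MTHFD2 (1619 bases), ERN1 (884), SLC7A11 (865), EIF2AK3 (781) and HYOU1 (667). SESN2, a leucine sensor upstream of mTORC1, had a log2 fold change of 0.02 (SE 0.16), and PPP1R15A (GADD34), the phosphatase subunit that reverses eIF2 phosphorylation, of 0.13 (SE 0.15). Neither was called in either fit (adjusted p 0.979 and 0.772 by edgeR without the block, 0.883 and 0.182 with it).

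The enzymes that make serine, glycine, one-carbon units, proline and asparagine were lower in 7 of 8 cases with the block and in 1 (PYCR1) without it, and 7 had an unadjusted p below 0.05. The shares of all genes that were lower were 16.2%, 0.413% and, at an unadjusted p below 0.05, 7.93%. In all 8 enzymes every siMED12 library lay below every siCtrl library, as in 10.9% of all genes. All 3 pairs moved down in each, as in 27% of all genes. For ASNS the groups nearly touched, at 4.40 CPM (74 counts) in siMED12 replicate 1 against 4.43 CPM (70 counts) in siCtrl replicate 2. The median log2 fold change was -0.38, and the pair medians were -0.42, -0.46 and -0.38. PYCR1, the mitochondrial enzyme of the last step of proline synthesis (chromosome 17, 81932384 to 81942412, minus strand), was 167, 179 and 168 CPM in the siCtrl libraries against 110.2, 102 and 106 CPM after siMED12. Replicates differed little (171 CPM ± 6.94 in siCtrl to 106 CPM ± 4.29 in siMED12, SD, n = 3 each), and the fold change was -0.69, SE 0.08, edgeR adjusted p 0.0293 unblocked, and -0.69, adjusted p 1.31e-14 blocked. The exons of PYCR1 share 450 bases with genes on the opposite strand and 408 with MYADML2 on its own strand. ALDH18A1, which catalyses the first steps of the same route, went from 180.1 CPM ± 12.9 in siCtrl to 142 CPM ± 6.27 in siMED12, SD, n = 3 each (-0.34, SE 0.09, edgeR adjusted p 0.13 unblocked, and -0.34, adjusted p 4.51e-07 blocked).

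MTHFD2, a mitochondrial folate enzyme, was 255, 268 and 232 CPM in the siCtrl libraries against 187, 191 and 166 CPM after siMED12. Its decrease was nearly the same in the 3 pairs (-26.9%, -28.8% and -28.4%), with -0.47, SE 0.10, edgeR adjusted p 0.075 unblocked, and -0.47, adjusted p 7.33e-12 blocked. PSAT1, the aminotransferase of serine synthesis, was 206, 219.8 and 163 CPM in the siCtrl libraries against 157, 154 and 121 CPM after siMED12. Levels differed between replicate numbers in both groups, and the groups were still separate (-0.45, SE 0.14, edgeR adjusted p 0.187 unblocked, and -0.45, adjusted p 1.82e-10 blocked). SHMT2, which makes glycine and one-carbon units from serine, was 528, 586 and 577 CPM in the siCtrl libraries against 426, 431 and 433 CPM after siMED12. The siMED12 libraries lay within a narrow range (564 CPM ± 31.5 in siCtrl to 430.1 CPM ± 3.65 in siMED12, SD, n = 3 each; -0.39, SE 0.08, edgeR adjusted p 0.0808 unblocked, and -0.39, adjusted p 1.33e-10 blocked). PHGDH and PSPH, the first and last enzymes of serine synthesis, were lower once the block was in the fit, with unblocked log2 values of -0.20 and -0.36 (blocked adjusted p 0.000658 and 4.47e-05 by edgeR). ASNS, asparagine synthetase and one of the best known ATF4 targets, was listed at only 6.66, 4.43 and 4.75 CPM in the siCtrl libraries against 4.40, 4.15 and 4.13 CPM after siMED12. It was not called (-0.32, SE 0.23, edgeR adjusted p 0.578 unblocked, and -0.31, adjusted p 0.213 blocked). The annotation places a second gene on the same strand over 2415 of its 4896 exonic bases, and reads that fall on both genes may not have been counted, so the level of ASNS is uncertain.

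All 5 amino acid transporters were lower with the block, and 1 (SLC1A5) without it, while all 5 had an unadjusted p below 0.05. Of all genes tested, 16.2% were lower with the block, 0.413% without it and 7.93% at an unadjusted p below 0.05. The transporters' median log2 fold change of -0.61 was the lowest of the 6 roles, and their pair medians were -0.50, -0.67 and -0.55. SLC1A5 (ASCT2), a glutamine and neutral amino acid exchanger (chromosome 19, 46774883 to 46788594, minus strand), was 236, 246 and 257 CPM in the siCtrl libraries against 159, 156 and 166 CPM after siMED12. The gap between the groups was wide relative to the spread (246 CPM ± 10.3 in siCtrl to 161 CPM ± 5.15 in siMED12, SD, n = 3 each), with -0.61, SE 0.08, edgeR adjusted p 0.0297 unblocked, and -0.61, adjusted p 9.8e-15 blocked. It shares 794 exonic bases with genes on the opposite strand. SLC7A5 (LAT1), the large neutral amino acid transporter, was 1914, 2335 and 1581 CPM in the siCtrl libraries against 1283, 1424 and 1083 CPM after siMED12. Each pair moved down by about the same share (-32.9%, -39.0% and -31.5%), with -0.62, SE 0.16, edgeR adjusted p 0.123 unblocked, and -0.61, adjusted p 7.46e-17 blocked. SLC3A2 (CD98), the heavy chain that carries SLC7A5 and SLC7A11 to the membrane, was 425, 526 and 442 CPM in the siCtrl libraries against 322, 379 and 344 CPM after siMED12. Its groups were separate too (-0.41, SE 0.11, edgeR adjusted p 0.132 unblocked, and -0.41, adjusted p 3.82e-11 blocked).

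SLC7A1, a transporter of arginine and lysine, was 212, 228 and 179.8 CPM in the siCtrl libraries against 151, 144 and 113 CPM after siMED12. Its siMED12 libraries were all below the siCtrl libraries (-0.61, SE 0.14, edgeR adjusted p 0.0907 unblocked, and -0.61, adjusted p 9.07e-14 blocked). SLC7A11 (xCT), which imports cystine for glutathione synthesis, was 104, 117 and 82.0 CPM in the siCtrl libraries against 82.6, 72.9 and 57.4 CPM after siMED12. The groups overlapped by a small margin, since siCtrl replicate 3 was below siMED12 replicate 1, yet all pairs moved down (-20.7%, -37.7% and -30.0%; -0.51, SE 0.17, edgeR adjusted p 0.196 unblocked, and -0.51, adjusted p 3.38e-09 blocked).

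**Figure D3:**
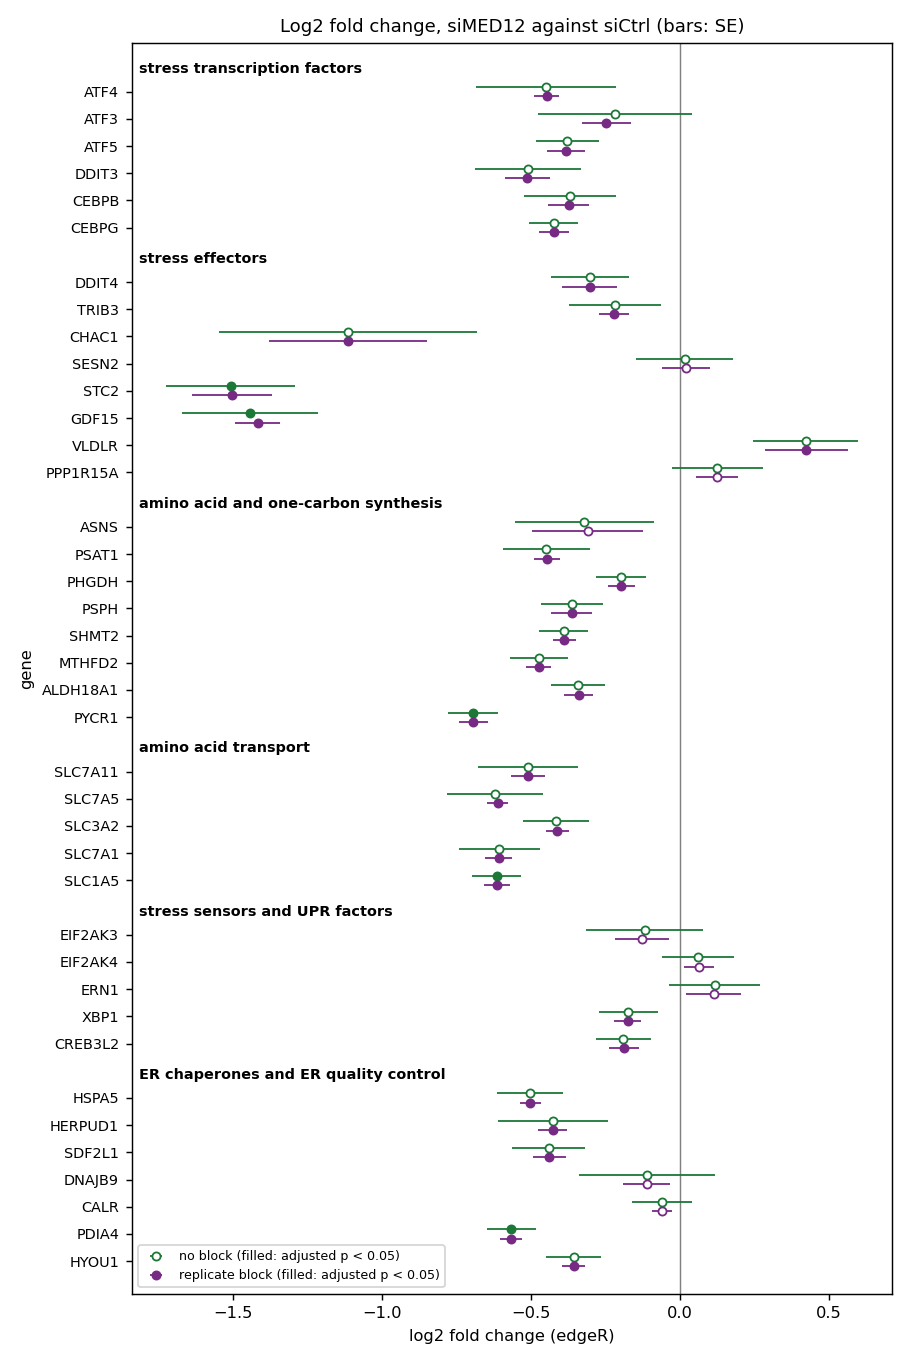
Log2 fold change of siMED12 against siCtrl (x axis) for the 39 members, in rows grouped by role, from edgeR without the block (green) and with the replicate block (purple), with bars of 1 SE and filled points for an adjusted p below 0.05. Without the block 5 points are filled, all left of 0, and with it 31 are, of which 1 (VLDLR) is right of 0.

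Of the 7 chaperones and quality control factors of the endoplasmic reticulum, 5 were lower with the block and 1 (PDIA4) without it, with a median log2 fold change of -0.43 and pair medians of -0.41, -0.49 and -0.33. The shares of all genes tested that were lower were 16.2% with the block and 0.413% without it. PDIA4, a protein disulfide isomerase (chromosome 7, 149003062 to 149028662, minus strand), was 791, 828 and 840.3 CPM in the siCtrl libraries against 555, 529 and 575 CPM after siMED12. The groups were far apart relative to their spread (819.5 CPM ± 25.8 in siCtrl to 553 CPM ± 22.98 in siMED12, SD, n = 3 each), with -0.57, SE 0.08, edgeR adjusted p 0.0397 unblocked, and -0.57, adjusted p 2.26e-15 blocked. HSPA5 (BiP), the main chaperone of the compartment and the standard marker of the unfolded protein response (chromosome 9, 125234853 to 125241382, minus strand), was 1438, 1748 and 1686 CPM in the siCtrl libraries against 1038, 1177 and 1219.8 CPM after siMED12. All siMED12 libraries were lower, and the pairs changed by -27.8%, -32.6% and -27.7% (-0.50, SE 0.11, edgeR adjusted p 0.0874 unblocked, and -0.50, adjusted p 9.69e-15 blocked). The DESeq2 Wald test called HSPA5 without the block (adjusted p 0.0043).

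SDF2L1, a cochaperone of HSPA5, was 76.5, 95.1 and 77.5 CPM in the siCtrl libraries against 57.7, 67.6 and 58.2 CPM after siMED12. The groups were separate (-0.44, SE 0.12, edgeR adjusted p 0.142 unblocked, and -0.44, adjusted p 5.32e-08 blocked). HERPUD1, which organises the degradation of misfolded proteins, was 131, 195 and 171 CPM in the siCtrl libraries against 95.04, 134 and 140.2 CPM after siMED12. It varied with the replicate number, and the groups overlapped although every pair moved down (-27.2%, -31.0% and -18.2%; -0.43, SE 0.18, edgeR adjusted p 0.317 unblocked, and -0.43, adjusted p 3.67e-09 blocked). HYOU1, a large chaperone that exchanges the nucleotide of HSPA5, had separate groups as well (629 CPM ± 42.4 in siCtrl to 491 CPM ± 28.2 in siMED12, SD, n = 3 each; -0.36, SE 0.09, edgeR adjusted p 0.121 unblocked, and -0.36, adjusted p 1.48e-09 blocked). CALR and DNAJB9 were called in neither fit. CALR (calreticulin), which folds glycoproteins, was 1598, 1819 and 1640.0 CPM in the siCtrl libraries against 1520.4, 1756 and 1573 CPM after siMED12, with overlapping groups and a log2 fold change near 0 (-0.06, SE 0.10, edgeR adjusted p 0.839 unblocked, and -0.06, adjusted p 0.165 blocked). DNAJB9, a cochaperone that restrains ERN1, had overlapping groups as well (-0.11, SE 0.23, edgeR adjusted p 0.88 unblocked, and -0.11, adjusted p 0.29 blocked). CALR and HSPA5 both hold an ER stress element in the stretches printed above.

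Levels between genes can be compared per length, as CPM per kilobase of exon. On that scale CALR (602 in siCtrl), SLC7A5 (408), HSPA5 (248.7) and PDIA4 (248) were the most abundant members in siCtrl, and VLDLR (0.466), ASNS (1.08), ERN1 (1.10) and EIF2AK3 (1.11) the least. HSPA5 and PDIA4 did not differ beyond their spread in siCtrl, and the 3 last-named of the least abundant genes did not either. SLC7A5 per length was well above its partner SLC3A2 (72.6), and SLC7A11 below both (10.48). Exon lengths count every annotated exon, also those 22Rv1 cells may not use.

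**Figure D4:**
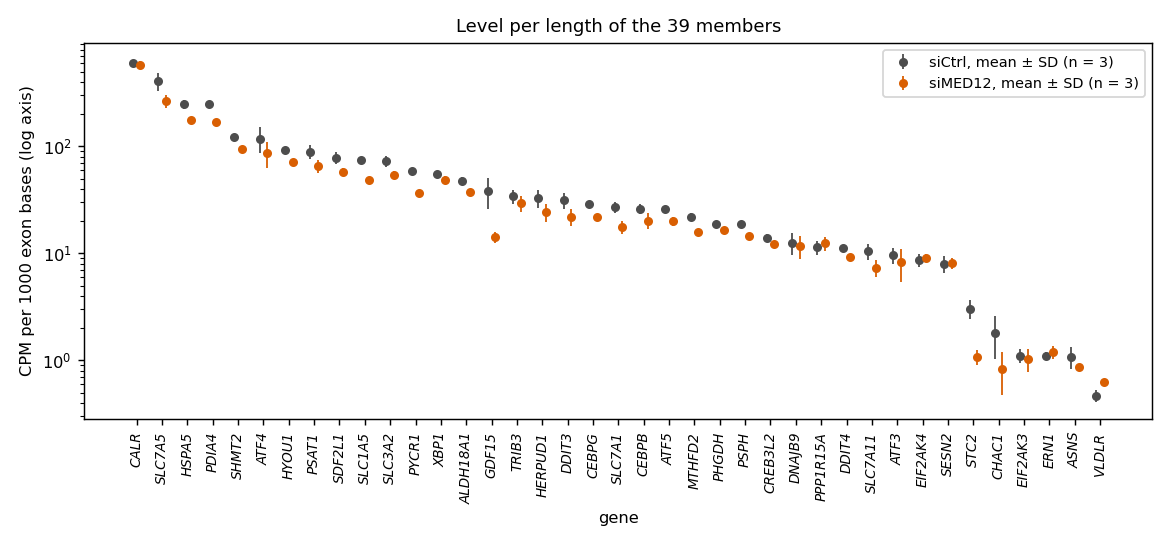
CPM per kilobase of exon (log axis) of the 39 members in order of their siCtrl level, as mean ± SD (n = 3 each) in siCtrl (grey) and siMED12 (orange). The siCtrl levels run from 602 (CALR) to 0.466 (VLDLR), and the orange points lie below the grey ones at most levels.

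Other genes of these pathways, from 4 lists of 72 genes that hold none of the members, were then read in the same fit. These lists too were chosen with earlier results of the data known. FGF21 did not pass the expression filter. Of the 71 tested, 1 was lower (MTHFD1L) and 0 were higher without the block (20 and 3 at an unadjusted p below 0.05), and 36 were lower and 8 higher with it. Over all genes, 0.413% were lower and 0.151% higher without the block (7.93% and 7.65% at an unadjusted p below 0.05). With it 16.2% were lower and 17.1% higher, or 23.2% and 22.9% of genes with a mean of at least 10 CPM. Their median log2 fold change was -0.16. The 14 other enzymes of amino acid and one-carbon metabolism resembled the members of that role in direction, with 11 lower and 0 higher with the block and a median of -0.35. MTHFD1L, the mitochondrial formate-producing enzyme, went from 36.6 CPM ± 4.03 in siCtrl to 20.5 CPM ± 1.76 in siMED12, SD, n = 3 each (-0.84, SE 0.13, edgeR adjusted p 0.0449 unblocked, and -0.84, adjusted p 1.32e-10 blocked), and ALDH1L2, which oxidises mitochondrial formyl-folate, from 145 CPM ± 18.5 in siCtrl to 88.4 CPM ± 12.0 in siMED12, SD, n = 3 each (-0.71, SE 0.13, edgeR adjusted p 0.0644 unblocked, and -0.71, adjusted p 5.25e-14 blocked). CBS, the enzyme that joins homocysteine and serine, had a log2 fold change of -0.45 (adjusted p 6.6e-08 by edgeR with the block).

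Of 10 other amino acid transporters, 5 were lower and 1 higher with the block (median -0.18), where 16.2% and 17.1% of all genes were. SLC43A1, SLC7A6 and SLC6A9 had log2 fold changes of -0.61, -0.53 and -0.50, whereas SLC7A2, a cationic amino acid transporter like SLC7A1, was higher (0.23, adjusted p 0.00124 by edgeR with the block). SLC7A6 shares 4217 of its 7588 exonic bases with genes on the opposite strand, so its level is uncertain as well. Of 37 other unfolded protein response genes, 18 were lower and 3 higher with the block (median -0.12), beside the same shares of 16.2% and 17.1% over all genes. HSP90B1 (GRP94), an abundant chaperone, went from 2494 CPM ± 182 in siCtrl to 1716 CPM ± 151 in siMED12, SD, n = 3 each (-0.54, SE 0.10, edgeR adjusted p 0.0655 unblocked, and -0.54, adjusted p 1.15e-15 blocked). CANX (calnexin), which folds glycoproteins with CALR, went from 1173 CPM ± 59.3 in siCtrl to 836 CPM ± 36.9 in siMED12, SD, n = 3 each (-0.49, SE 0.09, edgeR adjusted p 0.0574 unblocked, and -0.49, adjusted p 4.72e-13 blocked). DERL3, a degradation factor, had a log2 fold change of -0.76 with overlapping groups (adjusted p 1.82e-12 by edgeR with the block). Of its 3796 exonic bases, 2923 overlap SMARCB1 on the opposite strand. Whether strand was used in counting was not stated, so the level of DERL3 is uncertain. The 3 higher genes were ATF6B (0.46), CREB3L4 (0.37) and the sensor ATF6 (0.21), with siMED12 libraries above the siCtrl libraries in each. Their edgeR adjusted p was 1.36e-07, 7.07e-07 and 0.00567 with the block, and 0.14, 0.27 and 0.326 without it. CREB3 (0.06) and CREB3L1 (0.21) of the same list were called in neither fit.

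The 10 tested genes of the other integrated stress response list had a median above 0 (0.13). With the block 4 were higher and 2 lower, where 17.1% and 16.2% of all genes were. KLHL24, induced by amino acid shortage, went from 18.0 CPM ± 3.22 in siCtrl to 27.0 CPM ± 3.89 in siMED12, SD, n = 3 each (0.58, SE 0.18, edgeR adjusted p 0.169 unblocked, and 0.59, adjusted p 2.21e-06 blocked). The eIF2 kinase EIF2AK2 (PKR), which double-stranded RNA activates and interferon induces, was higher by 0.25 and ATF2 by 0.24 on the log2 scale, both with overlapping groups (adjusted p 0.00017 and 0.0451 by edgeR with the block). NUPR1, a stress-induced chromatin protein, and TXNIP, a regulator of glucose uptake, were lower (-0.24 and -0.26, adjusted p 0.0212 and 0.000434 by edgeR with the block). TXNIP varied far more between replicate numbers than between treatments, at 282, 185 and 103 CPM in the siCtrl libraries against 216, 162 and 99.6 CPM after siMED12.

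**Figure D5:**
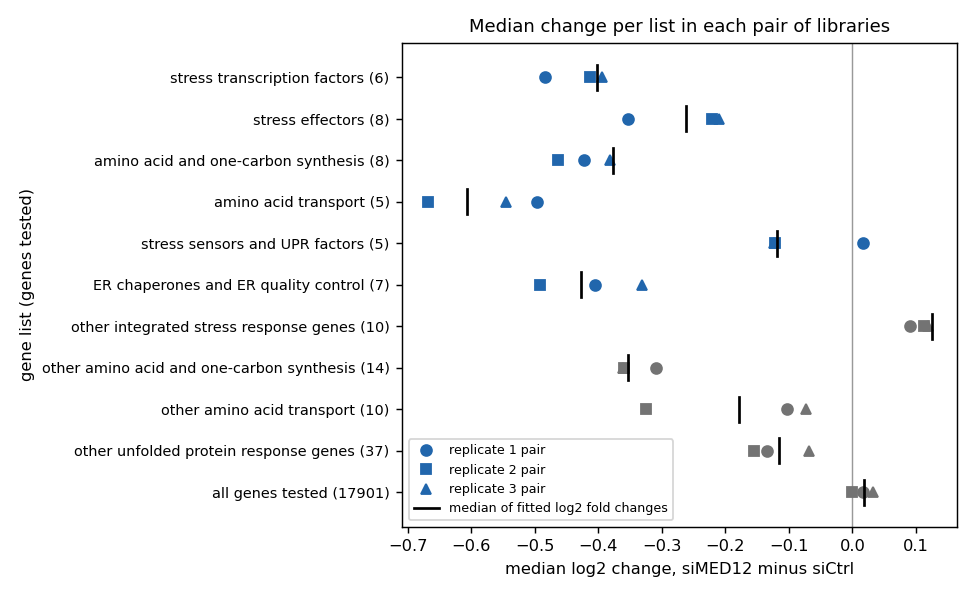
Median log2 change of siMED12 minus siCtrl (x axis) over the tested genes of each list (rows, with the number of genes), separately for the pairs of replicate 1 (circle), 2 (square) and 3 (triangle), members in blue and the other lists and all genes in grey, with a black bar for the median of the fitted log2 fold changes. The medians of all 3 pairs lie left of 0 for every role of the members except the sensors and UPR factors, where the first pair gave 0.02, and right of 0 for the other integrated stress response genes.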

How the data were processed

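Poly(A) RNA was sequenced in 6 libraries (22Rv1, 3 per group), whose labels give group and replicate. Poly(A) capture and strand-specific preparation are given in the labels. Per the study's methods, reads were aligned and counted by the authors with Rsubread against GRCh38.p13 with Gencode Release 43. Its version, the use of strand and the handling of reads on several genes were not given in the sources used here. The deposited counts are raw reads per gene. The deposited log2 CPM values (other file) were recomputed with edgeR (prior count 2) to within 4.96e-09, so no batch correction is in them.

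Counts were tested with edgeR 4.0.16 in R 4.3.3 (expression filter, TMM, quasi-likelihood F-test, two-sided, Benjamini-Hochberg adjustment over 17901 genes, threshold 0.05). The study's methods name edgeR without giving its design, and the study describes a batch-corrected heatmap of these cells. The main fit has no block, and the blocked fit is the alternative. Replicates are numbered 1 to 3 in each group. Correlations of the libraries' deviations from their group mean were 0.532, 0.373 and 0.643 for equal numbers and -0.460 to -0.0233 for unequal ones, so a fit with the number as a block is printed beside each result it changes. Deviations within a group cancel out, so the negative values partly follow from the positive ones and are no separate sign of pairing. No replicates were duplicates (chi-square per degree of freedom 10.3 to 40.7). The methods state biological replicates, and the labels do not name separate cultures. Unblocked p-values measure the spread between these libraries. Blocked p-values measure only the spread left after differences between replicate numbers are removed. The common dispersion was 0.0368 without the block and 0.00228 with it. Both fits share information on spread over all genes, so a very small blocked p does not rest on the 3 pairs of that gene alone. SEs were derived from the fold change and F statistic.

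Members and lists were chosen with earlier results of these data known. All members are accounted for. Library values are printed for members called without the block, the transcription factors and the sensors, and for up to 4 per role and direction with the largest blocked change, and up to 3 per direction of each other list are named. ASNS, SLC3A2, CALR and TXNIP have library values outside this rule and were chosen after their values were seen. Coordinates, exon lengths and overlaps came from Gencode 44 (GRCh38, with an entry for 99.97% of counted genes), and promoter letters from RefSeq. Other settings tried were scaling by DESeq2 size factors or by library size, 2 other filters, the Wald test of DESeq2 1.42.0, limma-trend 3.58.1, the block, and omission of single libraries. The procedure was tested on simulated data.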

Additional observations from a re-analysis of the deposited data

How the results depend on the processing

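For the 39 members, 427 of 507 values from other settings had the main direction and call, 28 were no longer called, 42 became called and 10 reversed sign. Members lower, 5 in the main fit, became 9 with no filter beyond 1 count, 16 with the DESeq2 Wald test and 30 with the replicate block, and 0 to 2 without 1 library: 0 without replicate 1 or 2 of either group (19 to 23 then had an unadjusted p below 0.05 and were lower). Members higher, 0, became 1 with the replicate block and 0 without any 1 library, and that 1 became 0 to 1 in blocked fits without 1 library. Blocked fits called 27 to 31 members lower. A blocked fit without 1 library rests on the other pairs only, so omitting either library of a pair is not a separate check. Over all genes, 27 higher and 74 lower became 186 and 290 with no filter, 331 and 493 with the Wald test, 3058 and 2908 with the block, 34 and 118 under a 1 CPM mean filter, and 31 and 49 when scaled by library size alone. Without 1 library they ranged from 0 to 8 and from 0 to 37. Library size only moved the median of the synthesis enzymes to -0.34 and that of all genes from 0.02 to 0.06. Without 1 library, medians ranged from -0.65 to -0.47 for transport, -0.17 to -0.010 for sensors and -0.52 to -0.33 for chaperones. MED12 ranged from -1.90 to -1.45 and lost its call in 4 of 6. Sign changes: SESN2 (-0.00083 under the 1 CPM filter, and -0.12 to 0.13 without 1 library), ATF3 (-0.39 to 0.024), DNAJB9 (-0.31 to 0.059), EIF2AK4 (-0.020 to 0.17) and PPP1R15A (-0.0072 to 0.20), none of them called without the block. The causes were not tested.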

Other observations

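Members differed in how far they followed the replicate number. In 25 of the 39, the log2 difference between treatments was larger than the range of the 3 replicate-number means over both groups, as it was in 27.9% of all genes, and in 14 it was smaller. PYCR1 (range 0.02 against a difference of 0.69), PDIA4 (0.07 against 0.57), SHMT2 (0.08 against 0.39) and CEBPG (0.09 against 0.42) were nearly even across the numbers. ATF4 (0.78 against 0.45), ATF3 (0.73 against 0.22), DNAJB9 (0.66 against 0.11) and HERPUD1 (0.54 against 0.43) differed more by number. ATF4 was highest in replicate 1 of both groups, whereas HERPUD1, DNAJB9 and ATF3 were lowest there. The 8 genes were picked with their values in view, and what the replicate numbers stand for was not given in the sources used here.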
